A study of Ananas comosus with 9 samples.

Results

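The genes described here are 9 that take the largest shares of RNA-seq counts in pineapple (Ananas comosus) fruit peel, out of 26730 gene models. Their identifiers are Aco013999.1.path1, Aco006050.1.path1, Aco009712.1.path1, Aco009983.1.path1, Aco005343.1.path1, Aco011715.1.path1, Aco022494.1.path1, Aco012837.1.path1 and Aco005546.1.path1, written below without the ending that every gene shares. They were chosen by their share of counts in these same libraries, so levels and ranks are given as a description, with no test. By mean share over all libraries they hold 9 of the first 10 places, from Aco013999 at 2.69% to Aco005546 at 0.303%. The other place, rank 5, belongs to the cysteine peptidase gene Aco004356 at 0.418%, and the next gene below them is Aco001982 at 0.229%. The study, titled around anthocyanins and the loss of peel colour, sampled fruit at 3 ages counted in days after flowering (DAF), 60, 90 and 120, with 3 libraries each. Age is the only difference that the labels give, and they name no cultivar. Whether libraries of 1 age are separate fruits is not stated, so a p-value here covers only the spread among these libraries, and that spread may be technical.

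A plant organ usually puts a large part of its messenger RNA into a small set of transcripts, and in fruit skins such sets often include genes of defence and of protein folding. Serine endopeptidase inhibitors block digestive and microbial proteases, chitinases cut the chitin of fungal walls, and DnaJ cochaperones bring client proteins to Hsp70. A share of counts depends on how many transcripts a gene makes and on their length. FPKM (fragments per kilobase of transcript, scaled to library depth) corrects for length. Where genes are set beside each other below by share, rank of share or counts, length is not corrected for.

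Library totals ran from 35038248 to 52937826 counts. At that depth the widest 95% exact binomial interval of any single share below reached 0.00699 percentage points to either side, which covers counting error only. Cuticle genes, the list for the peel surface, had counts for 67 of 90 members and summed to 500 to 550 FPKM in the 60-DAF libraries, 680 to 1009 in the 90-DAF ones and 308 to 561 in the 120-DAF ones. For light-harvesting genes (21 of 23 with counts) the ranges were 114 to 239, 336 to 2744 and 27.7 to 49.5 FPKM in the same order. The 2744 FPKM came from 90 DAF replicate 2, against 575 and 336 FPKM in replicates 1 and 3. Nutrient reservoir genes, a seed storage term, had counts for 34 of 54 and ranges of 214 to 319, 233 to 425 and 166 to 207 FPKM. The codes for xylem and fibre matched no gene. These lists moved with age, and their part in the results below was not tested. In such bulk samples fewer cells of a type and less RNA per cell cannot be told apart.

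Together the 9 genes took a larger part of the counts in the oldest peel. Their summed share averaged 6.49% ± 0.688 in 60-DAF peel, 4.62% ± 0.856 in 90-DAF peel and 10.5% ± 1.35 in 120-DAF peel (SD, n = 3 each). The 120-DAF libraries stood at 11.6, 10.8 and 9.01%, above all 6 younger libraries, whose range was 3.64 to 7.28%. Per length the concentration was greater, with 11.3, 7.36 and 18.7% of the FPKM sum at the 3 ages. Part of the rise of the summed share restates the choice, since Aco005343 and Aco005546 reached the top of the list only at 120 DAF. The 10 largest genes of each library, whichever they were, took on average 7.84, 5.72 and 11.4% of counts at the 3 ages. Reaching 50% of the counts took 1221 to 1296 genes in 60-DAF libraries, 1227 to 1418 in 90-DAF libraries and 831 to 933 in 120-DAF libraries, so the oldest peel spread its counts over the fewest genes.

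**Figure D1:**
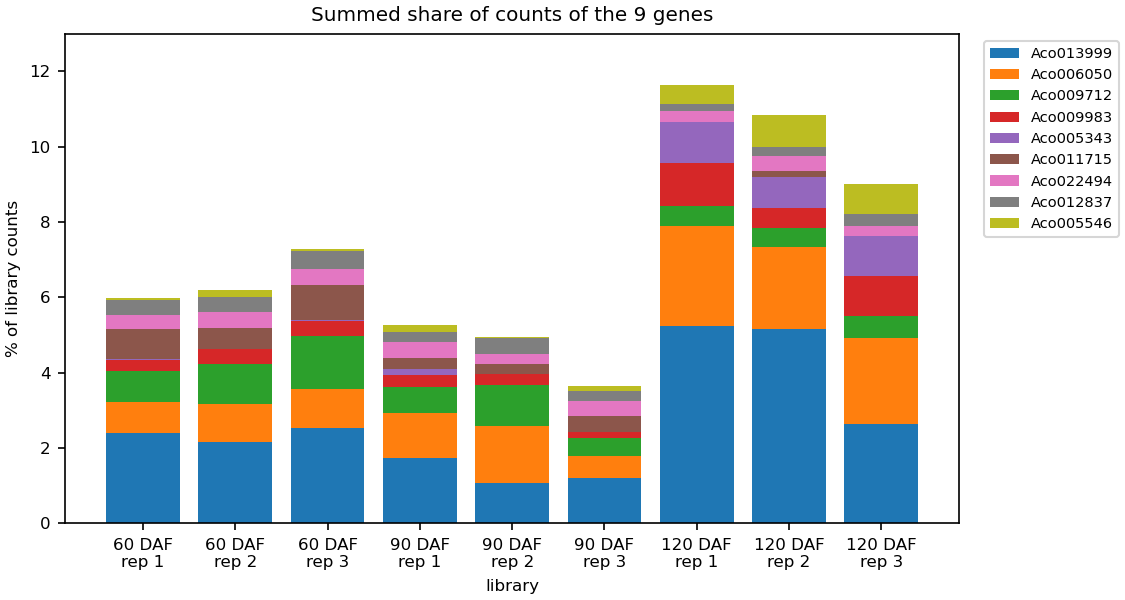
Stacked bars give the share of library counts (%, y axis) of each of the 9 genes in the 9 libraries, ordered by age in days after flowering (DAF) and replicate. The bars of 120 DAF reach 11.6, 10.8 and 9.01%, above every younger bar, and Aco013999 (lowest segment) is the largest segment in every bar but that of 90 DAF replicate 2.

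Between 120 and 60 DAF the summed mean share differed by 4.01 percentage points. Of the 9 genes, 5 were higher, by 5.53 points in all, and 4 were lower, with a summed difference of -1.53 points. Aco013999 accounted for 1.99 points, Aco006050 for 1.40, Aco005343 for 0.973, Aco005546 for 0.619 and Aco009983 for 0.550. On the lower side Aco011715 stood at -0.713 points and Aco009712 at -0.551. The make-up of the top of the list changed with age. Each age had 7 of the 9 genes among its 10 largest shares, but Aco011715 and Aco012837 only at the 2 younger ages, and Aco005343 and Aco005546 only at 120 DAF.

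Aco013999, annotated as an extracellular serine-type endopeptidase inhibitor, had the largest mean share and the highest FPKM at every age. It lies on the plus strand of contig 4, from 632664 to 633493, and has no product description, KEGG ortholog or EC number. Its share was 2.41, 2.16 and 2.52% in the 60-DAF libraries, 1.74, 1.08 and 1.22% in those of 90 DAF, and 5.25, 5.17 and 2.65% in those of 120 DAF. The ages did not overlap, with 90 DAF lowest and 120 DAF highest, although 120 DAF replicate 3 stood close to the 60-DAF libraries. On the FPKM scale the means were 57222 ± 4387, 32524 ± 8575 and 105578 ± 35950 at the 3 ages (SD, n = 3 each).

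Aco013999 rose 3.97-fold between the 2 later ages, 120 against 90 DAF (log2 fold change 1.99 ± 0.35 SE, edgeR quasi-likelihood adjusted p = 0.00966). That call was lost with only these ages in the fit (adjusted p = 0.0528) and by limma on log2(FPKM + 1) (0.170), in a range of 2.93e-09 to 0.170 across the alternatives. At 90 against 60 DAF it was not called (-0.83 ± 0.34, edgeR adjusted p = 0.262, 95% interval -1.60 to -0.06). Nor was it called at 120 against 60 DAF (1.16 ± 0.34, edgeR adjusted p = 0.0692, interval 0.38 to 1.93). For this last pair DESeq2 made the call (0.00170), as did edgeR without 90 DAF replicate 2 (0.04997), in a range of 0.00170 to 0.518.

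A second serine endopeptidase inhibitor gene, Aco014000, lies beside Aco013999 on the same strand of contig 4 (625429 to 626698), with 5965 bases between them. Its share was 0.155, 0.612 and 0.590% in the 60-DAF libraries, 0.0604, 0.346 and 0.0982% in those of 90 DAF, and 0.00811, 0.0139 and 0.00227% in those of 120 DAF. Every 120-DAF library was below every younger one. Aco014000 is named as a neighbour and for its high mean FPKM, which was 4925, 1828 and 88.5 at the 3 ages. The falls below partly restate that choice, so their p-values are no support for them. Aco014000 fell by 4.09 ± 0.93 on the log2 scale at 120 against 90 DAF (SE, edgeR adjusted p = 0.0223). The call was lost without 120 DAF replicate 1 (0.0808) or 3 (0.0585) and when only these ages were fitted (0.0531), in a range of 3.45e-06 to 0.0808. Its size also rests on single libraries, at -3.08 without 90 DAF replicate 2 and -4.69 without 120 DAF replicate 2. At 120 against 60 DAF it fell by 5.53 ± 1.0 (edgeR adjusted p = 0.0168), a call lost without 60 DAF replicate 2 (0.0542) or 3 (0.0516) or 120 DAF replicate 1 (0.0695), in a range of 1.79e-10 to 0.0695, and the value was -6.12 without 120 DAF replicate 2.

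The ratio between these neighbours was highest in the oldest peel. Per length Aco013999 exceeded Aco014000 by 7.85 to 34.6 times in the 60-DAF libraries, 6.93 to 64.1 times in the 90-DAF ones and 824 to 2598 times in the 120-DAF ones. Neighbouring copies can share reads, and how such reads were counted is not given in the sources used here.

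**Figure D2:**
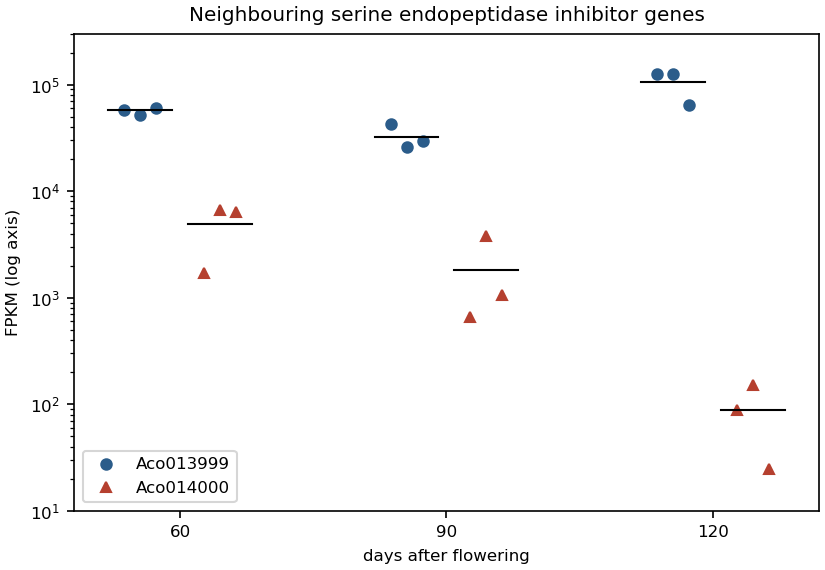
FPKM (log axis) of the neighbouring serine endopeptidase inhibitor genes Aco013999 (circles) and Aco014000 (triangles) by age in days after flowering, with 1 point per library and the mean as a line. Aco013999 stands at 64076 to 127079 FPKM at 120 DAF, where Aco014000 stands at 24.7 to 152 FPKM.

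The table holds 8 other genes annotated as serine-type endopeptidase inhibitors, of which 3 were expressed enough to be tested. Their summed level was 4927, 1833 and 121 FPKM at 60, 90 and 120 DAF, nearly all of it from Aco014000 at the younger ages. Besides Aco014000, the most abundant of them was Aco005876, with 6.70 to 50.1 FPKM in the 120-DAF libraries, against at most 0.603 FPKM in the 90-DAF ones. It passed the filter on low values only through the 120-DAF libraries, so no test of it is given. Aco004356, the cysteine peptidase gene of rank 5, took 0.635% ± 0.179, 0.505% ± 0.0953 and 0.114% ± 0.0407 of counts at the 3 ages (SD, n = 3 each). The fitted log2 difference at 120 against 90 DAF, given with no p-value, was -1.88 ± 0.33 (SE). Aco004356 is named for its share, in which it ranked 5, 4 and 58 at the 3 ages, so this fall partly restates that choice. The next gene of its ortholog, Aco011478, went the other way and rose by 1.69 ± 0.31 (edgeR adjusted p = 0.0117), a call kept under all 18 alternatives (7.65e-06 to 0.0476). Of the 8 tested genes of this ortholog, a list added after values had been seen, 1 rose and 2 fell, against 8.19% and 9.17% of all tested genes. Aco004356 is among those that fell.

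No function is given in the table for 3 of the 9 genes, Aco006050, Aco009983 and Aco022494, which lack a description, GO term, KEGG ortholog and EC number. That is 33.3% of them, against 23.3% of the 16791 genes tested and 34.4% of all genes. None of the 9 has a product description. Aco006050 (contig 17, minus strand, 9394158 to 9400174) ranked 3, 2 and 2 by mean share at the 3 ages. It took 0.820, 1.014 and 1.05% of counts in the 60-DAF libraries, 1.20, 1.497 and 0.575% in those of 90 DAF, and 2.64, 2.18 and 2.26% in those of 120 DAF. The oldest libraries lay above all others, while the younger ages overlapped. In 90 DAF replicate 2 it took the largest share of counts of any gene.

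Aco006050 rose at 120 against 90 DAF (log2 fold change 1.44 ± 0.33 SE, edgeR adjusted p = 0.0231) and at 120 against 60 DAF (1.58 ± 0.33, edgeR adjusted p = 0.0273). Neither call held throughout. The first was lost without 120 DAF replicate 1 (0.0729) or 3 (0.0572) or 90 DAF replicate 1 (0.0533), with total count scaling (0.0629), by limma (0.0698) and when only these ages were fitted (0.0914), and its lowest p was 4.50e-05. The second was lost under 8 of 18 alternatives, among them leaving out any 1 library of 60 DAF (0.0855, 0.104 and 0.0964 for replicates 1 to 3) or 120 DAF replicate 1 (0.0843) or 3 (0.0680), total count scaling (0.0549) and limma (0.0733), and its lowest p was 8.27e-06. At 90 against 60 DAF the difference was 0.14 ± 0.33 (edgeR adjusted p = 0.870, 95% interval -0.60 to 0.89).

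Aco009983 (contig 11, minus strand, 1977421 to 1978916) was the second most abundant transcript per length at every age. It had 13367, 17383 and 17701 FPKM in the 60-DAF libraries, 14725, 13078 and 6852 in those of 90 DAF, and 50870, 24212 and 46809 in those of 120 DAF. All 120-DAF libraries exceeded all younger ones. At 120 against 90 DAF it rose 4.43-fold (log2 fold change 2.15 ± 0.37 SE, edgeR adjusted p = 0.00965), a call that limma on log2(FPKM + 1) did not make (0.0567, in a range of 1.60e-07 to 0.0567). At 120 against 60 DAF it was 3.09-fold higher (1.63 ± 0.37, edgeR adjusted p = 0.0333). This second call was lost under 8 of 18 alternatives, among them leaving out any 1 library of 60 DAF (0.0949, 0.112 and 0.104 for replicates 1 to 3) or 120 DAF replicate 1 (0.103) or 3 (0.0898), total count scaling (0.0591) and limma (0.180), and its lowest p was 1.66e-04.

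Aco022494 (contig 13, plus strand, 7009559 to 7038728) is the longest of the 9 transcripts, and the ratio of its counts to its FPKM corresponds to about 12473 bases. Its share was 0.367, 0.425 and 0.429% in the 60-DAF libraries, 0.412, 0.275 and 0.396% in those of 90 DAF, and 0.290, 0.391 and 0.264% in those of 120 DAF, so the ages overlapped. No difference between ages was called, with edgeR adjusted p from 0.769 to 0.851. The 95% intervals of the log2 fold change were -0.73 to 0.38 at 90 against 60 DAF, -0.47 to 0.64 at 120 against 90 DAF and -0.65 to 0.46 at 120 against 60 DAF. An opposite-strand model, Aco022493, overlaps it by 604 bases and held 0.192% as many counts.

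**Figure D3:**
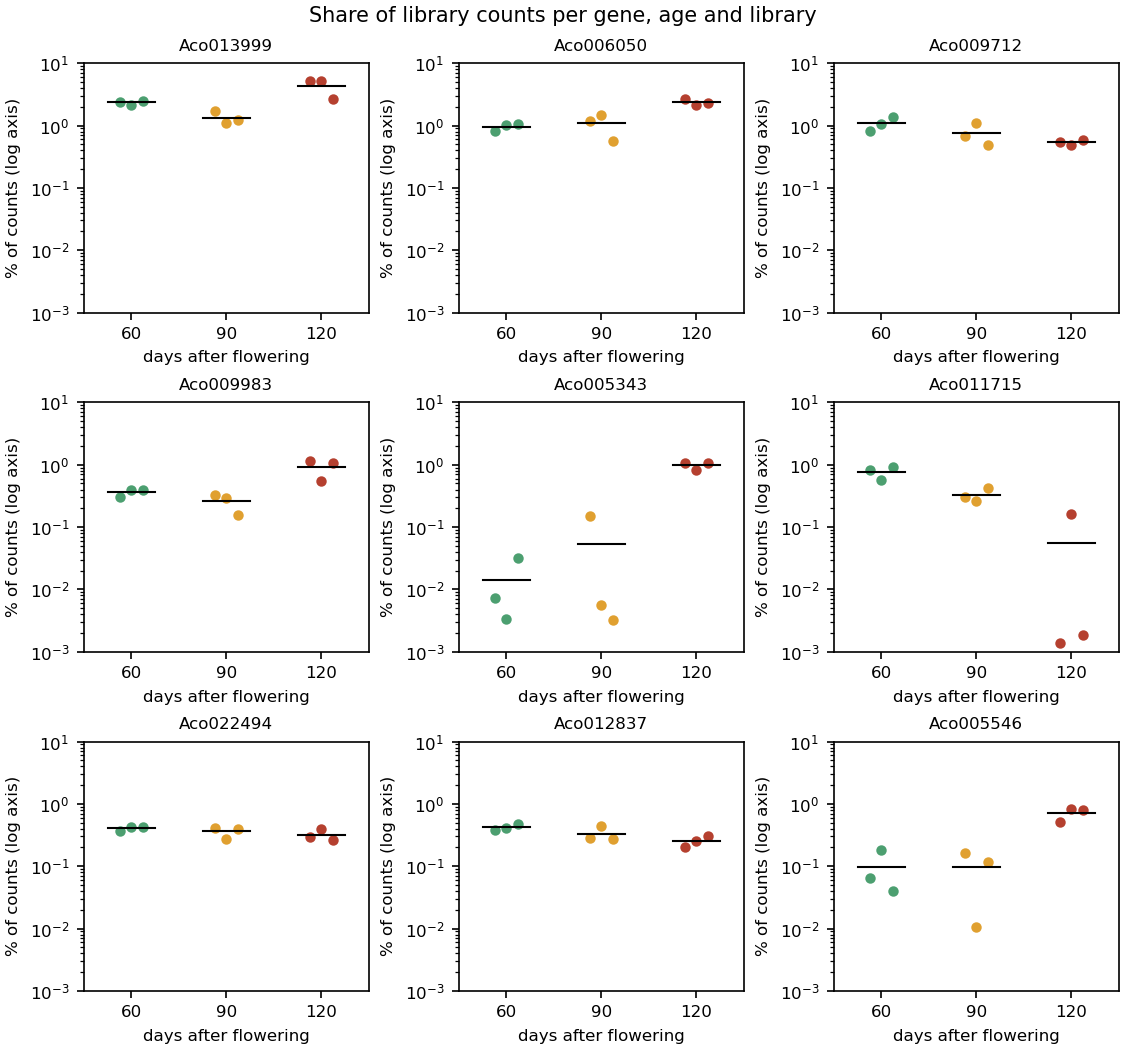
Share of library counts (%, log axis) of each of the 9 genes by age in days after flowering, with 1 point per library and the mean as a line. Aco005343 and Aco005546 stand highest at 120 DAF, Aco011715 is at 0.00136 and 0.00182% in 2 libraries of 120 DAF and at 0.162% in the other, and Aco022494 and Aco012837 stay between 0.205 and 0.484%.

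Aco009712, annotated to RNA binding alone (contig 1, minus strand, 151559 to 155513), ranked 2, 3 and 6 by mean share at the 3 ages. It took 0.825, 1.06 and 1.39% of counts in the 60-DAF libraries, 0.673, 1.09 and 0.488% in those of 90 DAF, and 0.548, 0.488 and 0.585% in those of 120 DAF. The 120-DAF libraries lay below those of 60 DAF, and 90 DAF overlapped both. None of its differences was called. At 120 against 60 DAF the log2 fold change was -0.72 ± 0.32 (SE, edgeR adjusted p = 0.193, 95% interval -1.46 to 0.01), in a range of 0.0846 to 0.479 across the alternatives. Of 505 genes annotated to RNA binding it was the most abundant per length, at a mean of 3609 FPKM against 940 and 886 FPKM for the next 2, Aco025777 and Aco012070. Of the 467 others tested 35 rose and 20 fell at 120 against 90 DAF, beside 8.19% and 9.17% of all tested genes.

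Aco012837 (contig 4, minus strand, 15069441 to 15072371) carries KEGG ortholog K09503, a DnaJ-type cochaperone, and terms for protein folding and response to heat. Its share was 0.386, 0.404 and 0.484% in the 60-DAF libraries, 0.282, 0.436 and 0.276% in those of 90 DAF, and 0.205, 0.251 and 0.308% in those of 120 DAF. As with Aco009712, the oldest libraries lay below the youngest and 90 DAF overlapped both. No difference was called, and at 120 against 60 DAF the log2 fold change was -0.45 ± 0.26 (SE, edgeR adjusted p = 0.302, 95% interval -1.04 to 0.14). The 6 other genes of this ortholog summed to 871, 696 and 625 FPKM at 60, 90 and 120 DAF, below the 3011, 2341 and 1807 FPKM of Aco012837 alone. Aco005130 was the 1 of these 6 that was called in any comparison, falling by 0.73 ± 0.16 on the log2 scale at 120 against 60 DAF (edgeR adjusted p = 0.0333). That call was lost under 7 of 18 alternatives, among them leaving out any 1 library of 60 DAF (0.0756, 0.0962 and 0.115 for replicates 1 to 3) or of 120 DAF (0.1203, 0.0637 and 0.0871), and its lowest p was 1.74e-04.

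The partners of DnaJ proteins were added as lists after values had been seen. Of 13 tested Hsp70 genes 4 fell at 120 against 90 DAF, where 9.17% of all tested genes fell. At 120 against 60 DAF 1 rose and 1 fell, beside 4.25% and 5.22% of all tested genes. The most abundant, Aco001457, averaged 813 FPKM and was not called in any comparison. The most abundant cytosolic Hsp90 gene, Aco000816, averaged 413 FPKM and was not called either (edgeR adjusted p from 0.243 to 0.671).

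Aco005546 and Aco005343 reached the top of the list at 120 DAF only, so their differences from younger peel partly restate how they were chosen. Aco005546 (contig 12, plus strand, 11176497 to 11177458) is annotated as a chitinase (KEGG ortholog K01183). It had 648, 1864 and 401 FPKM in the 60-DAF libraries, 1653, 106 and 1187 in those of 90 DAF, and 5134, 8448 and 8169 in those of 120 DAF. The oldest libraries stood above all others, while the younger ages overlapped and spread widely. By mean share it ranked 57, 44 and 5 at the 3 ages. At 120 against 90 DAF, where it was among the 50 largest genes at both ages, the log2 fold change was 3.17 ± 0.95 and missed the threshold (SE, edgeR adjusted p = 0.0538). DESeq2 called it (0.00121), as did limma on log2(FPKM + 1) (0.0355) and edgeR without 90 DAF replicate 2 (0.0464), in a range of 0.00121 to 0.123. Because the gene was chosen through its share at 120 DAF, none of these p-values is support for the difference. The 11 other genes of this ortholog summed to only 29.4, 15.4 and 8.60 FPKM at 60, 90 and 120 DAF. Of the 4 tested 1 fell at 120 against 90 DAF and 2 fell at 120 against 60 DAF, beside 9.17% and 5.22% of all tested genes.

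Aco005343 (contig 12, plus strand, 9257206 to 9287517) carries KEGG ortholog K15639, a cytochrome P450 of a type that in Arabidopsis inactivates brassinosteroids, the growth-promoting steroid hormones. The table marks it as a non-translating coding sequence, as it does 253 of the 16791 tested genes, and its model covers 30312 bases. It had 14.03, 6.23 and 60.3 FPKM in the 60-DAF libraries, 290 (replicate 1), 10.6 and 6.08 in those of 90 DAF, and 2018, 1569 and 2031 in those of 120 DAF. The oldest libraries were far above all others, and 90 DAF replicate 1 stood apart from its group. By mean share it ranked 1502, 158 and 3 at the 3 ages. The fitted difference, given with no p-value, was 85.8-fold at 120 against 60 DAF and 24.0-fold at 120 against 90 DAF. On the log2 scale the first was 6.42, and 7.79 without 60 DAF replicate 3, and the second was 4.58, and 8.08 without 90 DAF replicate 1 or 3.998 without replicate 3.

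The 5 other genes of K15639 summed to 90.8, 85.5 and 117 FPKM at 60, 90 and 120 DAF. Aco014296, the second most abundant of them, had 2.08 to 11.1 FPKM in the 120-DAF libraries, against at most 0.0285 FPKM in the 90-DAF ones. It passed the filter only through the 120-DAF libraries, so no test of it is given.

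Aco011715 (contig 9, minus strand, 12039798 to 12041174), annotated to the extracellular region and to sexual reproduction, was highest in the youngest peel. It had 8671, 5993 and 9837 FPKM in the 60-DAF libraries, 3193, 2725 and 4428 in those of 90 DAF, and 14.5, 1725 (replicate 2) and 19.4 in those of 120 DAF. The ages did not overlap, and 120 DAF replicate 2 stood nearer to the 90-DAF libraries than to its own group. By mean share it ranked 4, 7 and 168 at the 3 ages. At 90 against 60 DAF the log2 fold change was -1.23 ± 1.46 (SE, edgeR adjusted p = 0.725, 95% interval -4.57 to 2.10). Given with no p-value, the fitted log2 difference was -3.58 at 120 against 60 DAF and -2.35 at 120 against 90 DAF, and -8.60 and -7.37 without 120 DAF replicate 2.

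Of the 7 other genes annotated to sexual reproduction, a list added after values had been seen, 2 were tested. At 120 against 90 DAF 1 of these 2 fell, where 9.17% of all tested genes fell. That gene, Aco016325, had at most 1.66 FPKM in the 120-DAF libraries against 21.0 to 84.6 FPKM in the 90-DAF ones (edgeR adjusted p = 0.0198). The call was lost without 120 DAF replicate 1 (0.0672) and when only these ages were fitted (0.0638), in a range of 1.57e-06 to 0.0672. Aco016325 is named for its mean FPKM, which was 6.90, 51.1 and 0.588 at the 3 ages. Its fall partly restates that choice, so these p-values are no support for it. Aco011717, 5341 bases from Aco011715, had 176 FPKM in 60 DAF replicate 2, at most 14.7 FPKM in the other libraries, and was not called. An opposite-strand model, Aco011716, overlaps Aco011715 by 885 bases and held 0.0869% as many counts.

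All 9 genes passed the filter on low values. P-values were read for those among the 50 largest mean shares at both ages, which were 7 genes at 90 against 60 DAF, 7 at 120 against 90 DAF and 6 at 120 against 60 DAF. At 90 against 60 DAF 0 of 7 were called by edgeR, against 0.786% of tested genes (0.322% higher, 0.465% lower), with 1 of the 7 at an unadjusted p under 0.05 and 0 called by DESeq2 or limma. At 120 against 90 DAF 3 of 7 rose and 0 fell by edgeR, against 17.4% of tested genes called (8.19% higher, 9.17% lower). The 3 became 2 without 120 DAF replicate 1 or 3 or 90 DAF replicate 1, and 4 without 90 DAF replicate 2. Aco005546 is among the 7 and is the gene gained in that last fit. It was chosen through its share at 120 DAF, so that gain is no support. At 120 against 60 DAF 2 of 6 rose and 0 fell, against 9.47% called (4.25% higher, 5.22% lower), and the 2 became 0 without any 1 library of 60 DAF or without 120 DAF replicate 1 or 3. The median log2 fold change of all 9 was -0.38, 1.44 and 1.16 in these comparisons, against 0.03, -0.03 and -0.01 over all tested genes. The 9 were chosen by share in these libraries, Aco005343 and Aco005546 through 120 DAF, so nothing is read from these medians. The last 2 comparisons share the libraries of 120 DAF.

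**Figure D4:**
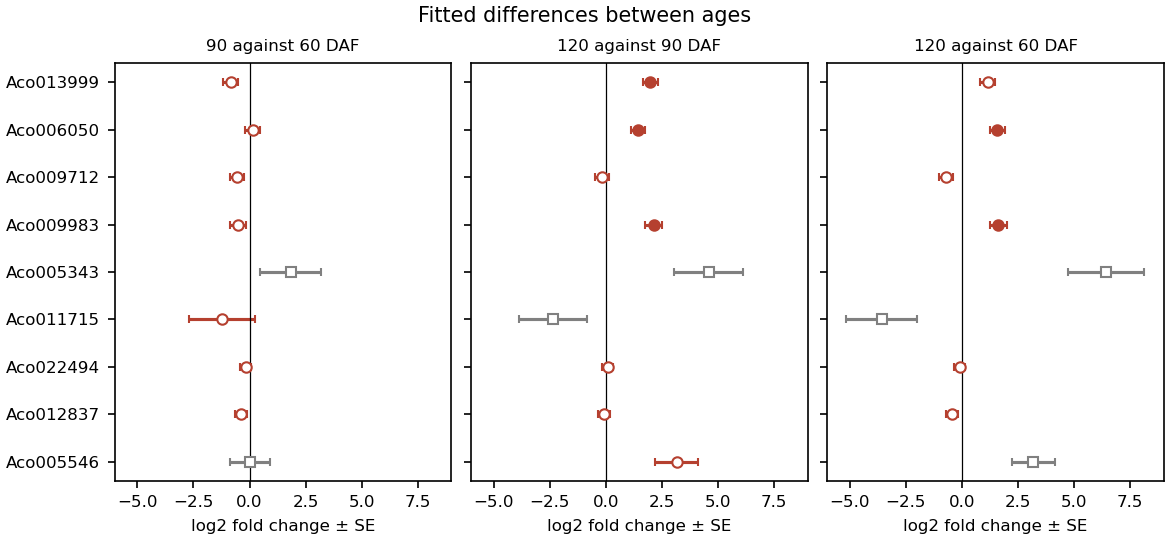
Fitted log2 fold changes (later over earlier age, x axis) with SE bars for the 9 genes in the 3 pairs of ages. Filled circles passed an adjusted p of 0.05 (Aco013999, Aco006050 and Aco009983 at 120 against 90 DAF, the last 2 also at 120 against 60 DAF), open circles did not, and grey squares are differences for which no p-value was read.

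By share, 0 of the 9 genes were higher in every library of 90 DAF than in any of 60 DAF and 2 were lower, against 10.5% and 10.1% of tested genes. In this sense 5 were higher and 1 was lower at 120 against 90 DAF, against 8.67% and 27.7%. At 120 against 60 DAF 5 were higher and 3 were lower, against 9.7% and 33.9%. The genes were chosen by share, so nothing is read from these counts. Total count scaling moved the median log2 fold change of all genes to -0.32 at 120 against 90 DAF and -0.29 at 120 against 60 DAF. Relative to that shift Aco013999 stood at 2.02 and 1.17, Aco006050 at 1.44 and 1.59, and Aco009983 at 2.14 and 1.62.

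Spread between libraries of an age differed among the 9 genes. The biological coefficient of variation fitted by edgeR was 0.251 to 0.331 for 6 of them, around the median of 0.317 over all tested genes. It was 0.716 for Aco005546, 1.02 for Aco005343 and 1.09 for Aco011715. In these 3 the highest library of an age exceeded the lowest in share by 15.5 times for Aco005546 at 90 DAF, 47.5 times for Aco005343 at 90 DAF and 119 times for Aco011715 at 120 DAF.

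The genes most like each of the 9 in pattern were taken by Pearson's r of log2(CPM + 1) over the 9 libraries, which fall into ages and share their depth. For Aco005343 these were the peptidyl-prolyl isomerase gene Aco013110 (r = 0.989) and the ribosomal protein gene Aco003197 (r = 0.980). Aco013110 too was higher in 90 DAF replicate 1 (101 FPKM) than in the other 2 libraries of that age (28.5 in each). For Aco011715 they were the long-chain acyl-CoA synthetase gene Aco014553 (r = 0.980) and the DNA-binding protein gene Aco014702 (r = 0.979). Both were higher in 120 DAF replicate 2, at 90.8 and 16.8 FPKM, than in replicates 1 (28.0 and 2.18) and 3 (25.6 and 3.53). Since r was taken over the same libraries, the library that stood apart is part of this likeness.

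Aco013999 was most like the alpha-mannosidase gene Aco008261 (r = 0.974) and Aco014349 of the mitochondrial ATP synthase (r = 0.970). Aco006050 was closest to the ESCRT I complex gene Aco000351 (r = 0.977) and the MAEA homolog Aco017630 (r = 0.974), and Aco009983 to the fatty-acyl-CoA binding gene Aco016000 (r = 0.989) and the transaldolase gene Aco015068 (r = 0.978). For Aco009712 they were the carbohydrate-binding kinase gene Aco014127 (r = 0.987) and the unannotated Aco017105 (r = 0.984). Aco012837 paired with the unannotated Aco017377 (r = 0.970) and the DNA topoisomerase gene Aco004200 (r = 0.955), and Aco022494 with the ribosomal protein gene Aco018599 (r = 0.974) and the kinase gene Aco020364 (r = 0.963). Closest to Aco005546 were the unannotated Aco029670 (r = 0.987) and the glycosyltransferase gene Aco006680 (r = 0.983). Among the 9 themselves Aco009712 and Aco012837 were the most alike (r = 0.911), followed by Aco006050 and Aco009983 (r = 0.896).

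Length separated the order by counts from the order by FPKM. The ratio of counts to FPKM corresponds to about 225 bases for Aco009983 and 413 for Aco013999, which ranked 2 and 1 by mean FPKM, and to 5283 bases for Aco005343 and 12473 for Aco022494, which ranked 83 and 361. The other 5 genes lay between 941 and 2345 bases and ranked between 5 and 15. The model of Aco005546 covers 962 bases, fewer than the 988 its ratio gives, so these lengths are approximate.

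**Figure D5:**
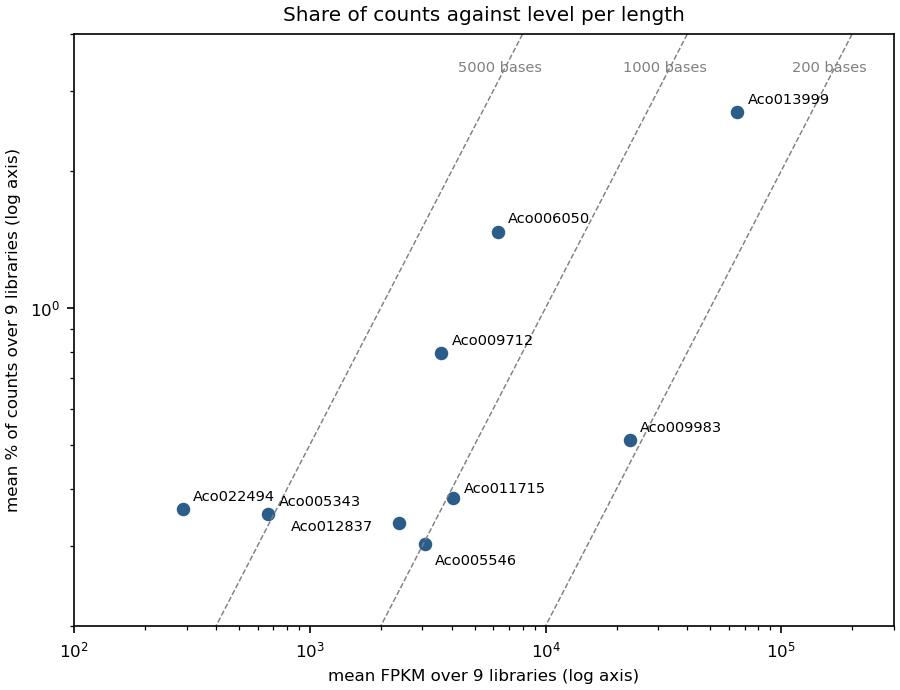
Mean share of counts (%, log axis) against mean FPKM (log axis) over the 9 libraries, 1 point per gene. Dashed lines join points of equal ratio of counts to FPKM, labelled by the transcript length they correspond to, and the genes range from about 225 bases (Aco009983) to about 12473 bases (Aco022494).

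Genes often used as references in expression studies are given for scale only. The 9 genes were chosen for large shares of counts, so standing above such genes restates that choice. The most abundant gene of elongation factor 1-alpha, Aco002827, averaged 1343 FPKM, and 7 of the 9 genes stood above it. GAPDH gene Aco018596 averaged 896 FPKM, with 7 above it, and tubulin gene Aco021630 averaged 380.0 FPKM, with 8 above it. Aco013999 exceeded Aco002827 by 48.5 times and Aco021630 by 171 times in mean FPKM. These ratios rest on the short length of about 413 bases for Aco013999. In mean share of counts it stood at 2.69%, against 0.202% for Aco002827 and 0.0576% for Aco021630. The codes used for actin and ubiquitin matched no gene.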

How the data were processed

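Poly(A) RNA of peel was sequenced in 3 libraries at each of 60, 90 and 120 DAF, per the labels' protocols. The deposited table gives a whole-number count for each gene and library, and the authors' FPKM, per the file headers, with 0.0001 in place of 0. The submitters' processing notes name Bowtie 0.12.2, HISAT2 2.0 and StringTie 1.3.0. What each did, which build was used and whether strand was counted is not given in the sources used here, so reads of overlapping models on opposite strands cannot be told apart, and similar copies could share reads. Coordinates are those of the table.

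A share is a gene's count over its library total (35038248 to 52937826). The 16791 genes that reached 1 FPKM in 3 or more libraries entered 1 edgeR quasi-likelihood fit of all 9 libraries with TMM scaling (factors 0.849 to 1.148), with 6 residual and 2.30 prior degrees of freedom. Benjamini-Hochberg adjustment ran over all 16791, with a threshold of 0.05. SE is the log2 fold change divided by the square root of F, and 95% intervals use the t quantile at the summed degrees of freedom. Fold changes carry the TMM scaling, while shares and FPKM do not. For the 9 genes p-values were read only where the gene was among the 50 largest mean shares at both ages. The edgeR script was run on simulated counts with the same biological coefficient of variation for all genes. That run checks the code only, and not how calls behave at the spread of these 9 genes. Alternatives were 3 other scalings (median-ratio, total count, and totals and TMM without the 9 genes), no filter or a filter at 5 FPKM, DESeq2, limma on log2(FPKM + 1), a replicate block, only the compared ages, and each library left out.

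The 9 genes, the lists and the tests were chosen with earlier results of these data known. The text names, for each of the 9, the 2 genes most like it in pattern, the 2 of highest mean FPKM among those sharing its ortholog or rarest molecular function term, and neighbours on the contig. It also names reference genes and any other gene of larger share. Not all are printed. Aco001982, the genes of the added lists, and the alternatives run on related genes were chosen after values had been seen. No sequence of these genes was used here. Software was edgeR 4.0.16, DESeq2 1.42.0 and limma 3.58.1 in R 4.3.3, with pandas 2.3.3 and matplotlib 3.10.9 in Python 3.11.15.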

Additional observations from a re-analysis of the deposited data

How the results depend on the processing

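The 9 genes in 3 pairs of ages gave 486 fold changes over the 18 alternatives. Of these, 437 kept their direction and side of the threshold or, where no p-value was read, moved by less than 1 SE. Where p-values were read, 25 lost a call, 5 gained one and 10 changed sign, and elsewhere 9 moved further. The cause was not tested. The 10 that changed sign were never called. At 120 against 90 DAF Aco022494 became -0.20 with total count scaling and -0.19 by limma. The other 8 of these came from leaving out 1 library. Over those fits the log2 fold change ran from -0.14 to 0.42 for Aco006050 and -0.32 to 0.0051 for Aco022494 at 90 against 60 DAF. At 120 against 90 DAF it ran from -0.36 to 0.19 for Aco009712, -0.26 to 0.14 for Aco012837 and -0.10 to 0.22 for Aco022494, and for the last from -0.24 to 0.0013 at 120 against 60 DAF. Signs also changed at 90 against 60 DAF where no p-value was read. Aco005343 was 1.84, and -1.66 without 90 DAF replicate 1, and Aco005546, at 0.02, ran from -0.46 to 0.88 with each library left out and was -0.40 by limma.

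Of the 9 genes, 0 were called at 90 against 60 DAF under all 18 alternatives. At 120 against 90 DAF the 3 calls became 1 by limma (Aco005546) and 1 with only the compared ages (Aco009983), and 2 to 4 with each library left out. Calls of Aco005546, which was chosen through 120 DAF, are no support. The 2 at 120 against 60 DAF became 0 with total count scaling, by limma and with the replicate block (adjusted p of 0.0562 for Aco006050 and 0.0751 for Aco009983, and 0.0556 for the related Aco005130), and 0 to 3 with each library left out. Same-numbered libraries deviated from their age means with correlations of -0.434 to 0.481, so the numbers were not taken to pair them.

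Over all genes the 132 calls at 90 against 60 DAF became 85 with total count scaling, 76 without the filter, 1437 by DESeq2, 293 by limma, 10 with the replicate block, 54 with only the compared ages, and 0 to 276 with each library left out. The 2915 at 120 against 90 DAF became 4656 by DESeq2, 1215 with only the compared ages and 1094 to 3164 with each library left out. The 1590 at 120 against 60 DAF became 3391 by DESeq2, 995 with the replicate block, 2585 with only the compared ages and 392 to 2452 with each library left out. Higher calls were 1375 of 2915 and 714 of 1590 in the last 2 comparisons, and 649 of 3214 and 381 of 1887 with total count scaling.

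As a part of the FPKM sum, which weights short transcripts more, the summed share became 11.3, 7.36 and 18.7% at 60, 90 and 120 DAF. With each library left out it ran from 6.10 to 6.74%, 4.30 to 5.10% and 9.92 to 11.2% of counts.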
